A study of Mus musculus with 12 samples.

Results

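The cytosolic ribosomal protein genes encode the protein components of the large and small subunits of the ribosome outside mitochondria. Their transcripts were measured in mouse liver with and without BIBB-515, an inhibitor of lanosterol synthase (Lss), an enzyme of cholesterol synthesis. Members were all genes whose symbol starts with Rpl, Rps or Rplp followed by a digit, leaving out the Rps6k kinases, which are not ribosomal proteins, and symbols containing -ps, which mark pseudogenes. This gave 86 of the 24062 genes in the count tables. By symbol, 43 encode large subunit proteins, 30 encode small subunit proteins and 3 encode the P-stalk (Rplp0, Rplp1 and Rplp2). A further 8 are close relatives of a subunit gene with a symbol of their own, called paralogs below, and the last 2, Rps19bp1 and Rpl7l1, are not counted as subunit genes here.

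The samples were flash-frozen livers of female C57BL/6J mice that arrived at 6 weeks of age and had 2 weeks of acclimation. All of them received the control diet for 3 days before they were assigned at random to stay on it or to receive the same diet with BIBB-515 at 55 mg/kg body weight for 10 days. Of the 11 mice per diet in the study, RNA-seq counts were analysed for 6 control mice (replicates 1 to 6) and 6 BIBB-515 mice (replicates 6 to 11). No mouse carried an engineered allele.

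A ribosome holds, with few exceptions, a single copy of each of its proteins, so their synthesis is coordinated, and their mRNAs are among the most abundant of a cell. Many of these mRNAs begin with a cytosine followed by a run of pyrimidines, the terminal oligopyrimidine (TOP) motif, through which the mTORC1 kinase controls their translation together. In the liver this supply carries the output of plasma proteins such as albumin. The P-stalk, built on Rpl12 and Rplp0 with Rplp1 and Rplp2, is the lateral arm of the large subunit that recruits the elongation factors.

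The start sites of the members that changed are shown first, since the TOP motif lies there. For 63 of the 86 members a RefSeq promoter (GRCm38.p6) had its start within 100 bases of the start in the count tables. Each line gives 30 bases, 15 on either side of the RefSeq start, in the direction of transcription, and capitals mark a run of at least 5 pyrimidines that opens with C within 5 bases of that start. The first 7 genes are all those with such a run among the 12 changed members that had a promoter. Their log2 fold changes, BIBB-515 over control, were 0.23 to 0.38. Rpl10a (0.39) and Rplp0 (0.32) are 2 of the 5 without such a run. The others without it, Rpl13 (0.33), Rps13 (0.25) and Rpl41 (0.23), are not shown.
Rps10, chr17:27635230-27635259, minus strand: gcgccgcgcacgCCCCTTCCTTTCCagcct
Rpl27a, chr7:109519180-109519209, plus strand: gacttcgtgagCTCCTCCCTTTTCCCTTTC
Rplp2, chr7:141447636-141447665, plus strand: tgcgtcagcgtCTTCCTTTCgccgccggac
Rps9, chr7:3704026-3704055, plus strand: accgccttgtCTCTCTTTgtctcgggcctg
Rpl38, chr11:114668565-114668594, plus strand: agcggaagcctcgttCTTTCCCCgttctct
Rpl12, chr2:32961697-32961726, plus strand: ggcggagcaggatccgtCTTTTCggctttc
Rps2, chr17:24720048-24720077, plus strand: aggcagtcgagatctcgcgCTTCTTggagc
Rpl10a, chr17:28328456-28328485, plus strand: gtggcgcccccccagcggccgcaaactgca
Rplp0, chr5:115559452-115559481, plus strand: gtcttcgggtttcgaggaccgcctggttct
The run in Rpl27a goes on past the window and is 20 bases long, against 13 bases in Rps10 and 6 in Rpl12 and Rps2. A run of this kind stood at the start of 28 of the 63 members with a promoter (44.4%) and of 2951 of 15670 genes of the count tables with one (18.8%), or 20.0% of the tested genes with one. Within 250 bases before to 50 bases after the start, CCGGAAG on either strand was found for 38.1% of the members, 12.2% of all genes and 18.7% of tested genes with a promoter. CACGTG, which reads the same on both strands, was found for 7.94%, 8.19% and 10.2%. An annotated start can lie several bases from the start used in liver, so a marked or missing run describes these windows only. For Rpl38 the RefSeq start lay 37 bases from the start in the count tables, against at most 2 for the other genes shown. Its run stands at the RefSeq start only.

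Depth was 22764819 to 31058370 counts per mouse, and a tested member had between 170 and 20533 counts in a mouse. Values are CPM, read counts scaled to a common library size with TMM factors over all genes, and a gene was tested where 2 or more mice reached 1 CPM. This kept 12481 genes and 78 of the 86 members. Nothing in the labels says which mice shared a cage or a sequencing run. Control mouse 2 stood apart for this family, with the lowest level among the controls for 71 of the 78 tested members. BIBB-515 mouse 6 was the lowest of its group for 63 of the 78. In a piece of liver, more RNA of a gene per cell and more cells of a type that express it cannot be told apart.

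Some of the ribosomal protein transcripts were higher in the BIBB-515 livers. Of the 78 tested members, 16 were higher past a false discovery rate (FDR) of 0.05 and 0 were lower, where 7.18% of all tested genes were higher and 6.48% lower by the same rule. At an unadjusted p under 0.05 edgeR found 41 members higher and 0 lower, against 14.3% of all tested genes higher and 15.5% lower. Every alternative tool and setting found 0 members lower past FDR 0.05. The number higher was 25 with 1 surrogate variable, 27 with DESeq2 and 36 with library totals in place of TMM, settings under which 10.1%, 9.32% and 12.0% of all tested genes were higher. With library totals the median of all tested genes was 0.04. When 1 mouse was left out the number lay between 10 (without BIBB-515 mouse 10 or 11, with 5.42% and 5.43% of all genes higher) and 29 (without control mouse 4, with 7.28%). The fitted log2 fold change was above 0 for 74 of the 78 members and for 5875 of all 12481 tested genes. Its median was 0.16 over the members and -0.01 over all tested genes. The 4 members below 0 were the paralogs Rps4l, Rps27l and Rpl36al and the non-subunit gene Rpl7l1. Every one of the 72 tested genes for subunit and P-stalk proteins had a fitted value above 0, from 0.00499 for Rpl35a, a large subunit protein, to 0.42 for Rplp1. Most members were lowest in the same mouse of each group, so these are not 72 separate observations.

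**Figure D1:**
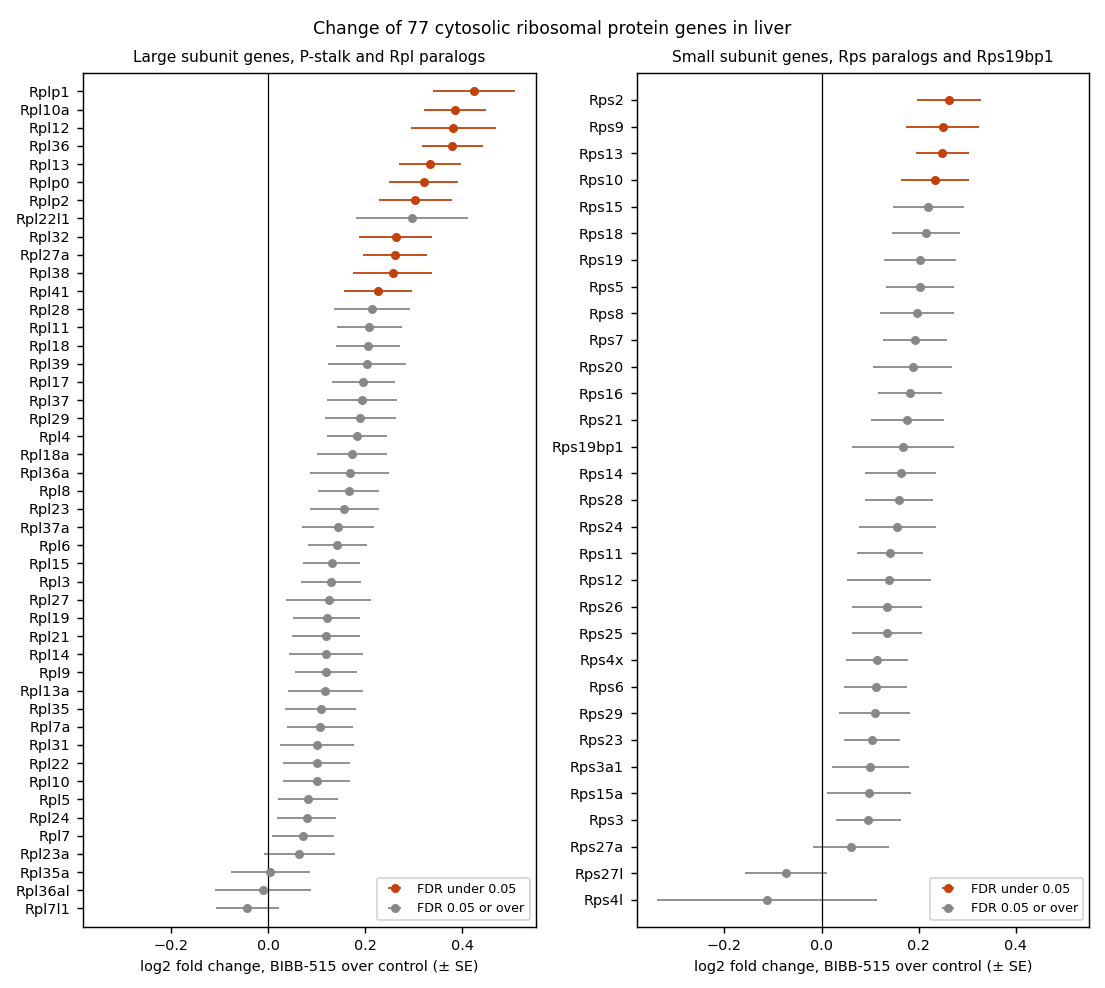
Log2 fold change of 77 of the 78 tested members, BIBB-515 over control, with its standard error (horizontal bars), split into genes with Rpl and Rps symbols. The 15 plotted members past FDR 0.05 (orange) are all to the right of 0, and 4 of the other members (grey) are to the left of it.

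Sums over the family were set side by side per mouse, with no test. The 86 members together had 11552 CPM in the lowest control mouse, 13424 at the median and 14374 in the highest. In the BIBB-515 mice the lowest sum was 13934.5 CPM, the median 15100.2 and the highest 15891. Of the 6 BIBB-515 mice, 5 lay above every control mouse, and mouse 6 lay within the control range. The ratio of the group means was 1.13, and it was 1.18 when the sums were taken over library totals with no TMM factors. The members took 1.30% ± 0.101 of all counts in the control mice and 1.53% ± 0.0638 in the BIBB-515 mice (SD, n = 6 each). Without control mouse 2, 12 members passed FDR 0.05 (7.78% of all genes were higher) and the median log2 fold change was 0.13. The call ended for Rps10, Rps9, Rpl41 and Rpl38, whose adjusted p-values then lay between 0.0609 and 0.0831.

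**Figure D2:**
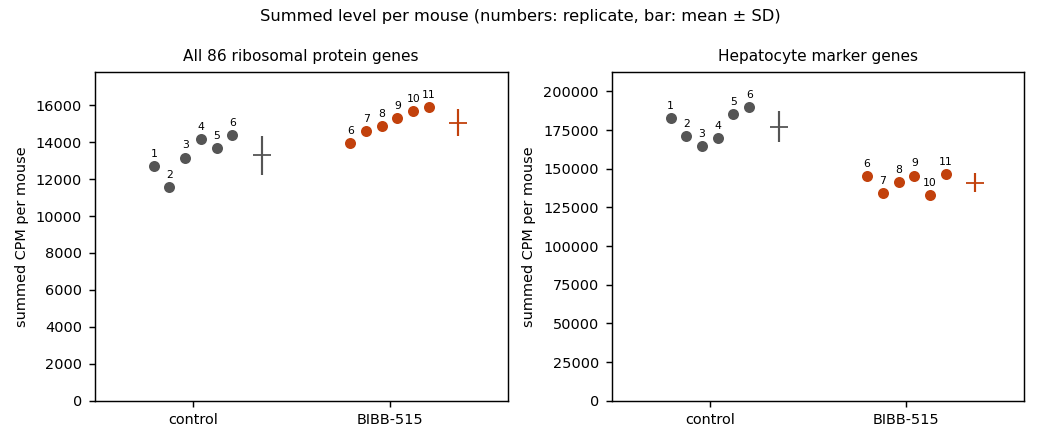
Summed CPM per mouse of the 86 members (left) and of the hepatocyte marker genes (right), with the mean and SD of each group beside its points. Numbers are replicate names with no order among them. The BIBB-515 mice have member sums of 13934.5 to 15891 CPM against 11552 to 14374 CPM in the control mice, and their marker sums are all below those of the control mice.

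All 3 P-stalk genes and Rpl12, at the base of the stalk, were higher. Rplp1 (chr9:61913283-61914510), one of the acidic proteins at the tip of the stalk, ranged from 320 to 443 CPM in the control mice, with a median of 404. In the BIBB-515 mice it ranged from 481 to 570.5 CPM with a median of 527, and the groups did not overlap. This was the largest fitted change in the family, a log2 fold change of 0.42 ± 0.08 (SE, adjusted p = 0.00467), or 34.2% more. Rplp1 was also the most abundant member per length, with 840 CPM per kb of exon in the control mice.

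Rplp0 (chr5:115559467-115563729), which anchors the stalk to the ribosome, ran from 326 to 426 CPM in control mice (median 367) and from 438 to 488 CPM in BIBB-515 mice (median 478.5). The groups did not overlap and the log2 fold change was 0.32 ± 0.07 (SE, adjusted p = 0.00937). Rplp2 (chr7:141447650-141451342), the partner of Rplp1, had 98.4 to 127 CPM in control mice with a median of 114, and 125.5 to 158 CPM with a median of 139 in BIBB-515 mice. Here 1 BIBB-515 mouse fell within the control range, and the log2 fold change was 0.30 ± 0.08 (adjusted p = 0.0169). The call of Rplp2 was lost in 1 of the 11 alternatives with all mice, that with the trend on GC content removed (adjusted p = 0.0510). Rpl12 (chr2:32961712-32964045), which binds the base of the stalk, had 148 to 220.5 CPM in control mice (median 184) and 228 to 251 CPM in BIBB-515 mice (median 237). Its groups were apart, with a log2 fold change of 0.38 ± 0.09 (adjusted p = 0.0107). These 3 P-stalk genes are the whole of that group, and the median of their fold changes, 0.32, compares with 0.15 over the 40 tested large subunit genes. Whether the stalk genes differ from the other members was not tested.

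Among the other large subunit genes, Rpl10a, Rpl36 and Rpl13 were past the threshold with no overlap between the groups. Rpl10a (chr17:28328471-28331033) had the lowest adjusted p of the family. Its level was 84.7 to 106 CPM in control mice (median 96.2) and 111 to 127 CPM in BIBB-515 mice (median 127). The log2 fold change was 0.39 ± 0.06 (SE, adjusted p = 0.00130), and 5 of the 6 BIBB-515 mice lay close together while mouse 6 was lower, although still above every control mouse. Rpl36 (chr17:56613395-56614246) went from 99.2 to 115 CPM (median 109) in the control mice and from 127 to 149 CPM (median 140.3) under BIBB-515, and its log2 fold change was 0.38 ± 0.06 (adjusted p = 0.00144). Rpl13 ran from 127 to 159 CPM (median 149) in control mice and from 172 to 191 CPM (median 184) in BIBB-515 mice, with a log2 fold change of 0.33 ± 0.06 (adjusted p = 0.00387).

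The remaining 4 large subunit genes past the threshold changed less. Rpl27a had a median of 98.2 CPM (85.8 to 113) in control mice and 117 CPM (111 to 125.5) in BIBB-515 mice, and Rpl32 had 167 CPM (136 to 190.3) and 197 CPM (191 to 209). Their log2 fold changes were both 0.26, with adjusted p-values of 0.0163 and 0.0323. The groups overlapped by 1 BIBB-515 mouse for Rpl27a and were apart for Rpl32 by under 1 CPM. The call of Rpl32 was lost in 1 of the 11 alternatives with all mice and in 6 of the 12 fits that left out 1 mouse. Rpl41, the shortest protein of the ribosome, had 209 CPM (188 to 231) and 246.5 CPM (220.2 to 271), and Rpl38 had 62.2 CPM (53.1 to 72.6) and 72.8 CPM (67.1 to 84.5). For both, 2 BIBB-515 mice lay within the control range, the log2 fold changes were 0.23 and 0.26, and the adjusted p-values of 0.0443 and 0.0493 were the closest to the threshold. Each of these 2 calls was lost in 3 of the 11 alternatives with all mice, and Rpl38 lost it in 10 of the 12 fits that left out 1 mouse and Rpl41 in 7.

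The small subunit contributed 5 of the 16 genes, out of 29 tested, with a median log2 fold change of 0.16 over all 29. Rps2, which lies near the mRNA entry channel, had a median of 358 CPM (313.5 to 387) in control mice and 421 CPM (401 to 455) in BIBB-515 mice, with no overlap and a log2 fold change of 0.26 (adjusted p = 0.0176). Its call was lost in 1 of the 11 alternatives with all mice, that with the trend on GC content removed (adjusted p = 0.0625). Rps13 was less variable than most, with 114 CPM (104 to 122) against 136.5 CPM (126 to 142), so that its smaller log2 fold change of 0.25 ± 0.05 had an adjusted p of 0.00858. Rps10 had 70.4 CPM (60.4 to 75.4) and 78.1 CPM (76.3 to 91.0), and Rps9 had 237 CPM (199 to 262) and 276.5 CPM (258 to 308). The groups were apart for Rps10 by about 1 CPM and overlapped by 1 mouse for Rps9, with log2 fold changes of 0.23 and 0.25 and adjusted p-values of 0.0372 and 0.0393. With 1 mouse left out, Rps10 lost its call in 7 of 12 fits and Rps9 in 8, and with all mice they lost it in 2 and 3 of 11 alternatives.

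**Figure D3:**
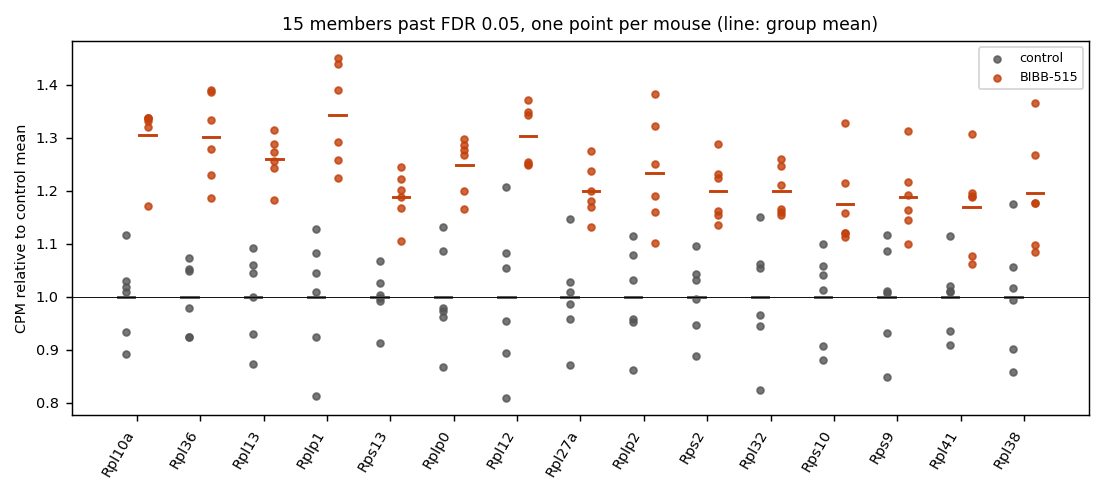
Of the 16 members past FDR 0.05, 15 in every mouse, as CPM divided by the mean of the control mice (vertical axis, linear), with control mice in grey, BIBB-515 mice in orange and a line at each group mean. In 10 of these 15 genes no BIBB-515 mouse reaches down to the highest control mouse.

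The groups did not overlap for 11 of the 78 tested members (14.1%), all with the BIBB-515 mice higher, against 4.35% of all tested genes. These were 10 of the 16 genes above and Rpl4, a large subunit protein that reached only an adjusted p of 0.0628. Just outside the threshold stood Rpl18 (log2 fold change 0.21, adjusted p = 0.0513), Rpl11 (0.21, adjusted p = 0.0518) and Rps18 (0.22, adjusted p = 0.0540). For each of these 3, 5 of the 6 BIBB-515 mice lay above every control mouse. Rpl11 is known outside the ribosome as an inhibitor of Mdm2. The standard error was 0.05 to 0.23 over the tested members with a median of 0.07, and the 16 called members had a median log2 fold change of 0.28.

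Levels per length differed far more among the members than between the diets. In the control mice the tested members ranged from 11.7 to 840 CPM per kb of summed exon, a 71.6-fold range with a median of 206. After Rplp1, the most abundant per length were Rps29 with 504 CPM per kb and Rps18 with 485. Rps29 had a log2 fold change of 0.11 (adjusted p = 0.341). The lowest were Rps19bp1, a nucleolar partner of Rps19, with 11.7 CPM per kb, Rps4l with 19.0 and Rps15a with 20.5. The length of Rps15a in the tables is 5134 bases, the longest of the tested members, which lowers its value per kb, and its CPM of 84.4 to 125 in control mice and 104 to 128 in BIBB-515 mice was ordinary for the family. Its log2 fold change was 0.10 (adjusted p = 0.490), and that of Rps19bp1 was 0.17 (adjusted p = 0.309).

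The paralogs were tested against their subunit genes as a ratio within each mouse. Both genes were tested for 4 pairs, and log2 ratios of counts were compared by a two-sided exact permutation test over all labelings of the 12 mice, adjusted over these 4 pairs. For Rpl36al over Rpl36a, a pair of nearly identical large subunit proteins, the log2 ratio was -1.08 ± 0.10 in control mice and -1.26 ± 0.05 in BIBB-515 mice (SD, n = 6 each). The difference was -0.17 ± 0.05 (SE, exact permutation p = 0.00866, adjusted p = 0.0346), and 3 of the 6 BIBB-515 mice lay below every control mouse. In the single-gene fit Rpl36a was at 0.17 (adjusted p = 0.180) and Rpl36al at -0.01 (adjusted p = 0.958). The adjusted p rose above 0.05 when any of 9 mice was left out, with differences of -0.21 to -0.16 over all 12 such fits.

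The other 3 ratios did not pass the test. Rpl7l1, a nucleolar relative of Rpl7 that works in ribosome assembly, had a ratio to Rpl7 lower by -0.11 ± 0.05 (exact permutation p = 0.0476, adjusted p = 0.0952). For Rpl22l1 over Rpl22 the difference was 0.22 ± 0.16 (exact permutation p = 0.199, adjusted p = 0.266), with control mice spread from -1.96 to -0.91 on the log2 scale and BIBB-515 mice from -1.40 to -1.14. Rpl22l1 itself had a log2 fold change of 0.30 ± 0.12 (adjusted p = 0.100). Rps4l over Rps4x differed by -0.27 ± 0.26 (exact permutation p = 0.329, which the adjustment left as it was). Rps4l was low throughout, at 11.6 to 23.5 CPM in control mice and 10.9 to 30.1 CPM in BIBB-515 mice. Reads mapping to several places were left out, so stretches shared with other genes may be counted unevenly within a pair. Of the 50-base words of their transcripts, 85.5% for Rpl36a and 22.1% for Rpl36al also occurred in transcripts of other genes. The effect of this on the ratios was not tested.

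The 8 members below the filter were of different kinds. Rpl26, Rpl30, Rpl34, Rps27 and Rps27rt share most of their exon bases with another gene of the annotation, and the counting left out reads that fall on more than 1 gene. For Rpl26, 95.8% of the exon bases overlapped Gm15772, and the main tables list it at 0 counts in every mouse. Rps27 and Rps27rt overlap each other, so neither could collect the reads they share. A second set of deposited tables, which counts primary alignments and gives a read to every gene it touches, placed these 5 genes at 77.8 to 193 CPM. There Rpl26 had 136 to 183 CPM in control mice (median 168) and 165 to 193 CPM in BIBB-515 mice (median 171). Their log2 fold changes in those tables were 0.07 to 0.11 with adjusted p-values of 0.257 to 0.543, so 0 of the 5 passed. In the main tables these 5 genes kept between 0 and 0.626% of those counts, while 76 members kept at least 98%. Rpl32, the only called member with an overlap, kept 91.3% and had a log2 fold change of 0.27 (adjusted p = 0.0372) in the second set. Its diet groups were not apart in that set. The lowest BIBB-515 mouse had 200.9 CPM and the highest control mouse 203.1, and 3 BIBB-515 mice lay above every control mouse. The remaining 3 were near 0 in both sets, with 0 counts in every mouse for Rpl10l, at most 5 counts for Rpl39l and at most 11 for Rpl3l, the muscle form of Rpl3. With primary alignments 19 of 83 tested members were higher and 0 lower, against 7.65% of all genes higher.

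Several properties of the genes were set beside the calls as description. Ribosomal protein genes have many processed pseudogenes, and a median of 35.9% of the 50-base words of a member's transcripts also occurred in a transcript of another gene (GENCODE vM21, 85 members). Among 16 tested members with under 20% of such words the median log2 fold change was 0.16 and 1 was called (6.25%). Among 61 with more it was also 0.16 and 15 were called (24.6%). Of all tested genes 7.18% were higher by the same rule. A small nucleolar RNA gene lay inside 21 tested members, of which 6 were called (28.6%), with a median log2 fold change of 0.18. For the other 57 the median was 0.16 and 10 were called (17.5%). With a pyrimidine run at the start the median was 0.17 over 26 tested members, and without it 0.16 over 31.

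Exon length moved with the fold change across the transcriptome. Among tested genes outside the family, the median log2 fold change was 0.05 for the 2000 genes of up to 1500 bases, 0.01 for 1500 to 3000 bases, -0.03 for 3000 to 5000 bases and -0.08 above 5000 bases. Of the 78 tested members, 71 were at most 1500 bases long, and their median was 0.17. All 16 called members were among these 71 (22.5% higher, 0 lower). Of the other genes of that length, 10.6% were higher and 3.45% lower, shares that differ from those over all tested genes. The BIBB-515 mice were above every control mouse for 15.5% of these 71 members and 6.35% of the other genes of that length. With the smooth trend of each library on exon length removed, an alternative chosen after seeing the data, 13 members were higher against 7.46% of all genes. All 13 were among the 16, and the median fell to 0.10 with that of all tested genes at -0.01. With the trend on GC content removed in the same way, 12 members were higher against 6.24% of all genes, and 9 of them were among the 16.

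**Figure D4:**
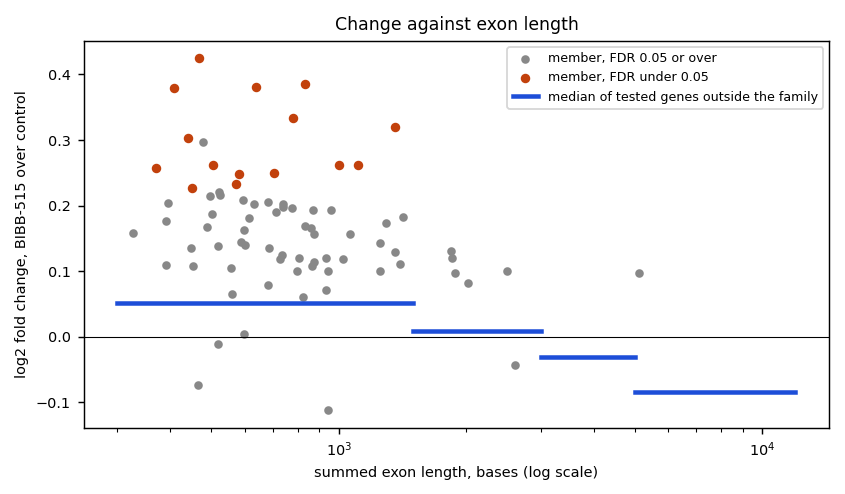
Log2 fold change of 77 of the 78 tested members (points) against its summed exon length in bases (log scale), with the median of tested genes outside the family in 4 length classes (blue lines, the last cut off at the right). The members of up to 1500 bases have a median of 0.17 and the other genes of that length one of 0.05.

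Other genes of the translation machinery were taken from lists, to be read against the 7.18% of all tested genes that were higher and the 6.48% that were lower. Of 27 tested mRNAs with a TOP motif that are not members, 3 were higher and 1 lower, with a median log2 fold change of 0.04. Rpsa and Fau are themselves ribosomal protein genes with other names. Rpsa, the small subunit protein also known as the laminin receptor, had 384 CPM (320 to 400.3) in control mice and 471 CPM (419 to 507) under BIBB-515, with a log2 fold change of 0.33 (adjusted p = 0.0113). Fau, a fusion that yields a small subunit protein, had a log2 fold change of 0.23 (adjusted p = 0.0208). The groups did not overlap for either gene. Gnb2l1, which encodes the ribosomal scaffold Rack1 and was picked out after its values were seen, had 0.18 (adjusted p = 0.0704). The single lower gene was Nap1l1, a histone chaperone, at -0.29 (adjusted p = 0.0387).

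Among 104 tested genes of ribosome biogenesis, 12 were higher (11.5%) and 0 lower, with a median of 0.08. The lowest p-values were those of Polr2e, a subunit shared by the nuclear RNA polymerases (0.36, adjusted p = 0.00235), Noc2l (0.26, adjusted p = 0.00449), Ddx56, a nucleolar helicase (0.25, adjusted p = 0.00451), and Pes1, a large subunit assembly factor (0.30, adjusted p = 0.0100). The BIBB-515 mice were above every control mouse for all 4. Of 77 tested mitochondrial ribosomal proteins, 5 were higher (6.49%) and 0 lower, with a median of 0.09 (Mrpl14, Mrps26, Mrps18b and Mrps35 had the lowest p-values, at 0.24 to 0.31). This count rose to 21 without TMM factors, where 12.0% of all tested genes were higher, and to 14 with 1 surrogate variable, where 10.1% were. At an unadjusted p under 0.05 edgeR found 22 of the 77 higher and 0 lower, against 14.3% and 15.5% of all tested genes. The fitted value was above 0 for 58 of them and below 0 for 19. Among 54 tested genes of mTORC1 and translation control, 3 were higher and 1 lower. Myc, a transcription factor known to drive ribosomal genes, went from 6.64 CPM (4.13 to 8.46) in control mice to 20.0 CPM (16.6 to 27.0) under BIBB-515, with a log2 fold change of 1.69 ± 0.18 (adjusted p = 3.07e-05). Its binding partner Max was lower, at -0.24 (adjusted p = 0.0492), Lamtor1, a lysosomal anchor of mTORC1, was at 0.26 (adjusted p = 0.0214), and Sesn2, an inhibitor of mTORC1, at 0.42 (adjusted p = 0.0351).

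Markers of liver cell types were set beside the members. Their counts past FDR 0.05 stand against 7.18% of all tested genes higher and 6.48% lower. Lists of 2 to 11 genes are too short for a count of 0 to say much. Of 11 tested hepatocyte markers, 0 were higher and 3 were lower: Ttr (-0.49, adjusted p = 0.00391), Alb (-0.40, adjusted p = 0.0129) and Fgb (-0.33, adjusted p = 0.0376), all secreted plasma proteins. The markers together took 176898 CPM at the median of the control mice and 143334 CPM at the median of the BIBB-515 mice, and every BIBB-515 mouse was below every control mouse. Alb alone had a mean of 120094 CPM in control mice. Of 10 tested stellate and fibroblast markers 2 were lower, Lrat (-0.81, adjusted p = 0.0202) and Dcn (-0.27, adjusted p = 0.0398), with summed levels of 373 to 508 CPM in control mice and 370.5 to 477 CPM in BIBB-515 mice. None of the tested markers passed for Kupffer cells and macrophages (11 tested), T and B cells (6), erythroid cells (3), sinusoidal endothelium (10), bile duct (7) or fat cells (2) by edgeR. At an unadjusted p under 0.05 by edgeR there were 4 among them, against 14.3% of all tested genes higher and 15.5% lower. Summed bile duct markers ran from 64.4 to 118 CPM in control mice and from 94.2 to 156 CPM in BIBB-515 mice, a ratio of group means of 1.31 with 3 of 6 BIBB-515 mice above every control mouse. For fat cell markers the ranges were 11.8 to 21.0 CPM and 15.4 to 26.7 CPM, a ratio of 1.26 with 2 of 6 above. The ratios were 1.04 for Kupffer cells and macrophages, 0.877 for T and B cells, 0.947 for erythroid cells and 0.929 for sinusoidal endothelium, with overlapping ranges. The globin genes Hba-a1, Hba-a2, Hbb-bt and Hbb-bs were listed at 0 counts in all 12 mice. The part of these differences in the members' higher share was not tested.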

How the data were processed

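RNA-seq counts of 12 mouse livers were analysed, 1 library per mouse. According to the submitters' processing notes and the file headers, reads were aligned to mm10 with STAR 2.5.3a. The authors deposited raw read counts per gene, made with featureCounts (Subread 1.6.3) on exons of the UCSC mm10 gene annotation. Strand was not used, and reads mapping to several places or overlapping several genes were left out. A second deposited set of counts holds primary alignments, with a read given to every gene it overlaps. Deposited counts per transcript and per exon were not used. Groups and replicate numbers were taken from the labels, and 0 columns of other samples were found.

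Genes were named by a rule: every member past FDR 0.05, the 3 nearest to it, the 3 most and 3 least abundant per kb, members below the filter, tested pairs, the P-stalk and non-subunit genes, and of each other list up to 4 genes past FDR 0.05 by lowest p. For 2 genes that this rule picks, values are not reported here. The members and lists were chosen with earlier results of these data known. Counts were scaled with TMM and tested with edgeR 4.0.16 (quasi-likelihood test, Benjamini-Hochberg adjustment over all 12481 tested genes, R 4.3.3). All 12 mice entered the fit with diet as the only term. Common variation between mice had a coefficient of 0.143. The scripts were tested on simulated counts with this coefficient for every gene and 200 genes changed. At FDR 0.05 the fit recovered 7% of them at a 1.25-fold change, 86.5% at 1.5-fold and 100% at 2-fold. These shares hold for that setting only. In the data variation differs between genes, and more genes were called (896 higher and 809 lower). The 7% is thus not an estimate for the members, though changes of the size seen in this family can be missed. Alternatives used DESeq2 1.42.0, limma 3.58.1, sva 3.50.0, other scalings and filters, the second set of counts and each mouse left out, and, added after seeing the data, each library's smooth trend on exon length, or on GC content (known for 11942 tested genes), removed through offsets. Ratios within pairs used counts plus 0.5. P-values set the difference between the diets against the spread between these mice. Sequences are from RefSeq (GRCm38.p6).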

Additional observations from a re-analysis of the deposited data

Results flagged for a closer look

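Of 108 groups of 6 mice examined, 4 had 1 mouse whose gap to its nearest neighbour took more of the group's range than Dixon's limit for 6 values, where chance alone gives about 1 in 20, or 5.40. For Rpl10a in the BIBB-515 group, mouse 6 was the lowest with 111 CPM against 125 CPM in the next mouse (share of the range 0.894). For Rps4l in the BIBB-515 group, mouse 11 was the highest with 30.1 CPM against 16.4 CPM (share 0.710). For Nap1l1 in the BIBB-515 group, mouse 6 was the lowest with 34.6 CPM against 39.2 CPM (share 0.695). For Lamtor1 in the BIBB-515 group, mouse 11 was the highest with 65.9 CPM against 58.3 CPM (share 0.743).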

How the results depend on the processing

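No member was lower past FDR 0.05 in any of the 11 alternatives with all mice or the 12 fits without 1 mouse. The 16 members higher became 25 with 1 surrogate variable, 27 with DESeq2 and 36 with library totals alone, and ranged from 10 (without BIBB-515 mouse 10 or without BIBB-515 mouse 11) to 29 (without control mouse 4). Removing the trend on GC content, chosen after seeing the data, left 12, with 6.24% of all tested genes higher. The median log2 fold change of the members was 0.10 to 0.22 over the alternatives and 0.13 to 0.19 over the fits without 1 mouse. Of the 16, 9 passed in every alternative with all mice and 8 in every fit. Rpl7l1 turned to 0.0138 with library totals alone, and ranged from -0.0702 to 0.00336 with 1 mouse left out (above 0 without control mouse 6). Rpl36al turned to 0.0413 with library totals alone, to 0.000550 with limma-voom, and ranged from -0.0859 to 0.0520 with 1 mouse left out. Genes of ribosome biogenesis past FDR 0.05 rose from 12 to 20 with library totals alone and ranged from 6 to 12 with 1 mouse left out. For mTORC1 and translation control 4 became 7 with DESeq2, with 2 to 5 as the range. For mitochondrial ribosomal proteins 5 became 14 with 1 surrogate variable, 9 with DESeq2, 21 with library totals alone and 8 with primary alignments, with 4 to 8 as the range. Of all tested genes, 7.18% were higher in the main fit, 10.1% with 1 surrogate variable and 9.32% with DESeq2. The share was 12.0% with library totals alone and 7.65% with primary alignments. It was 5.42% without BIBB-515 mouse 10, 5.43% without BIBB-515 mouse 11 and 7.28% without control mouse 4. With 1 mouse left out, the log2 ratio changed by -0.21 to -0.16 for Rpl36al to Rpl36a (no longer past the test in 9 fits), by -0.148 to -0.0929 for Rpl7l1 to Rpl7 and by 0.115 to 0.324 for Rpl22l1 to Rpl22 (each past it without control mouse 4). The cause was not tested for any of these. No paired analysis was possible because the diets share only replicate number 6, which names different mice. A member outside the 16 is not shown to be unchanged, since depth and 6 mice per group leave a standard error of 0.05 to 0.23.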
